A study of Mus musculus with 7 samples.

Results

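Interferon-stimulated genes are the genes that a cell switches on when interferon binds its receptors, and 48 of them were followed here in Ago2-knockout and wild-type mouse cells. The members are the rows of the count table whose Ensembl IDs belong to a list of 48 gene symbols, out of 43629 genes in the table. All 48 were found, and all 48 passed the filter on low counts that left 18426 genes for testing. Levels are in CPM, counts relative to library sizes scaled by the TMM method of edgeR. Differences are log2 fold changes with their standard error (SE).

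The study followed E14 mouse embryonic stem (ES) cells, of 129/Ola background, into a differentiation towards extra-embryonic endoderm (XEN), the lineage that lines the yolk sac. KO XEN stands for Ago2-knockout cells of lines C4 and 5-3 after 5 days in serum medium that held activin A at 10 ng/mL and all-trans retinoic acid at 0.1 µM, with 1 library from each line. WT XEN stands for wild-type E14 cells after the same 5 days, with libraries A and B. KO ESC stands for the undifferentiated Ago2-knockout cells, kept in serum with LIF, with 1 library of line C4 and 2 of line 5-3, named 5-3_1 and 5-3_2. Values of single libraries are listed in those orders throughout. Ago2 encodes an Argonaute protein, which carries small RNAs to their target transcripts. The labels do not say how the knockout lines were made or whether each is a single clone, and lines lie within genotype, so a difference between lines and a difference between genotypes cannot be told apart. Wild-type ES cells were not used here, so WT XEN against KO ESC differs in genotype as well as in differentiation.

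Type I interferons bind the receptor pair Ifnar1 and Ifnar2, and the kinases Jak1 and Tyk2 then phosphorylate STAT proteins such as Stat2, which join Irf9 and enter the nucleus. That complex binds the interferon-stimulated response element (ISRE) in promoters, whereas interferon gamma acts through pairs of STAT proteins on the gamma-activated site (GAS). The genes so induced encode proteins that bind viral RNA, block entry, trap particles at the membrane or mark proteins with Isg15. Undifferentiated ES cells are known for a weak response to interferon and to double-stranded RNA.

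RefSeq promoter windows (GRCm38.p6, the assembly also called mm10) from 250 bases before to 50 bases after the transcription start were given for 40 of the 48 members. The ISRE core, searched as GAAANNGAA on both strands, stood in the windows of 21 of the 40 members (52.5%) and of 9.76% of the 27025 genes with a window. Of windows rather than genes, 8.56% of 32851 held it. With 1 further A required the numbers were 19 members (47.5%) and 3.99% of genes. The GAS letters TTCNNNGAA, which read the same on both strands, stood in 9 of the 40 members (22.5%) and in 9.55% of genes. In 5 members both were found, with 2 places where their letters overlap, and 15 members held neither. A match is a run of letters and not a measured binding site, and a window without one says only that these letters are not in it. The windows below show 160 bases each, 5′ to 3′ on the gene's strand with the ISRE core in capitals. They are those of the members with the smallest adjusted p between KO XEN and WT XEN among members with the core, for 7 groups of the roles described below, so that the arrangement of the core can be read beside the values. Ifitm1, which has no core in the window, was added after its values were seen. All windows end at the base before the start except that of Ifitm3, whose matches lie after the start and which is shown from base -130 to base 30.
Gbp2, chr3:142620503-142620662, + strand: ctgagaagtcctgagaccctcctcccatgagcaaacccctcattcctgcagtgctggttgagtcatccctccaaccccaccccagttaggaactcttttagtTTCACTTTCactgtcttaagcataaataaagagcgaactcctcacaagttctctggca
Ifitm3, chr7:141010715-141010874, - strand: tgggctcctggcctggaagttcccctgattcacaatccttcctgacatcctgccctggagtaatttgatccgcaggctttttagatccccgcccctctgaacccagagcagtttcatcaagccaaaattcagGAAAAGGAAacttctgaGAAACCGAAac
Ifit3, chr19:34583369-34583528, + strand: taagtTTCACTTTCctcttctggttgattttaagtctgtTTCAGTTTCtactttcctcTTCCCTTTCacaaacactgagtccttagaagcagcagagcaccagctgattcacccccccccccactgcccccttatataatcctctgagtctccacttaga
Trim30a, chr7:104465194-104465353, - strand: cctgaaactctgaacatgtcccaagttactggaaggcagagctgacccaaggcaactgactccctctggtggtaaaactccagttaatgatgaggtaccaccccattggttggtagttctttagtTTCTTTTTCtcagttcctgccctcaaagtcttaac
Apol9b, chr15:77728912-77729071, + strand: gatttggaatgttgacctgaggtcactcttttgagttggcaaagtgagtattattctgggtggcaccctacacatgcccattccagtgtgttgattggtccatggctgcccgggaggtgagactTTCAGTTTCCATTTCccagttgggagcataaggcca
Isg15, chr4:156200819-156200978, - strand: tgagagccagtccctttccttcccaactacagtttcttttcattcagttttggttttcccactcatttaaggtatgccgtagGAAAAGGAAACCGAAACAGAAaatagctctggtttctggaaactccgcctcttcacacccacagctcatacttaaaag
Bst2, chr8:71537473-71537632, - strand: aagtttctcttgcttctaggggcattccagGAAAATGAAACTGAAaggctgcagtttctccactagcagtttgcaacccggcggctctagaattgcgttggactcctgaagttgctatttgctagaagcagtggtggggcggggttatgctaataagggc
Ifitm1, chr7:140967916-140968075, + strand: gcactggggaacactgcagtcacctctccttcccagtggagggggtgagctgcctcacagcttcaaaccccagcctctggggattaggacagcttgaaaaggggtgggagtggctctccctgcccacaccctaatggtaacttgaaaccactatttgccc
Ifit3 held 3 separate copies of the core and Isg15 a run of 3 overlapping copies. Bst2 and Apol9b each held 2 copies that overlap, and Gbp2 and Trim30a 1 copy each. The annotated gene starts of Ifitm1, Gbp2, Apol9b and Ifitm3 in GENCODE lie upstream of the RefSeq starts used here. In Gbp2 the core lies after the GENCODE start, and in Apol9b that start falls within the cores.

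**Figure D1:**
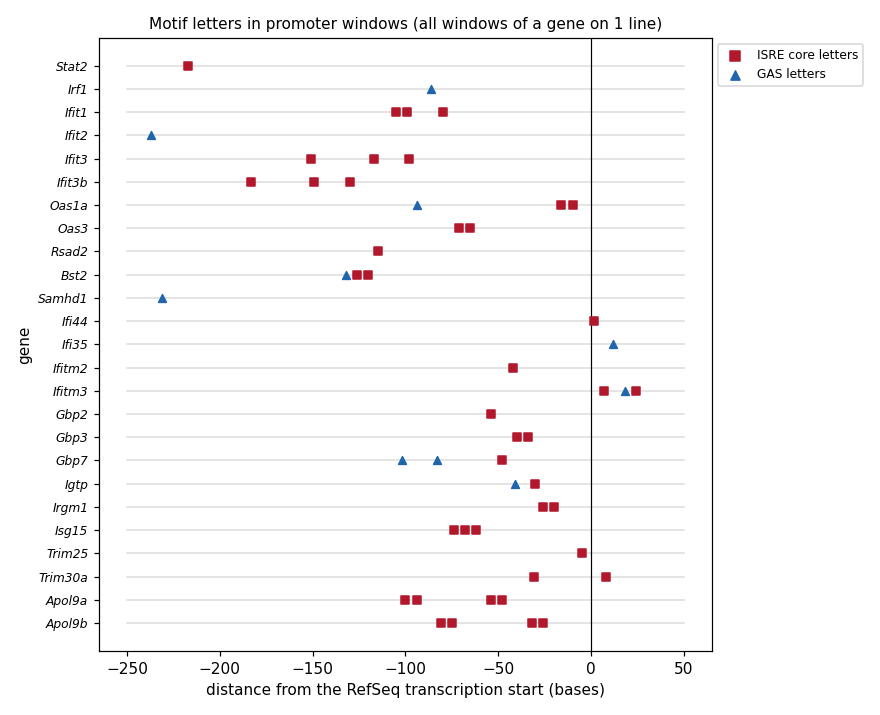
Positions of the letters GAAANNGAA (ISRE core, red squares) and TTCNNNGAA (GAS, blue triangles) in the promoter windows of the members that hold either, in bases from the RefSeq transcription start (x axis), 1 line per gene with all its windows together. The squares of Ifitm3 lie after the start, whereas those of Isg15, Ifit3 and Bst2 lie before it.

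Total counts were 13941826 and 33389566 for the KO XEN libraries, 36427340 and 38595537 for those of WT XEN, and 39998808 to 48650113 for those of KO ESC. Ago2 had KO XEN levels of 122 and 9.94 CPM, WT XEN levels of 394 and 432 CPM and KO ESC levels of 94.4, 9.37 and 9.65 CPM, so both libraries of line C4 kept more of the transcript than those of 5-3. Ago2 in KO XEN was not past the threshold against WT XEN (log2 fold change -2.66 ± 1.36, edgeR adjusted p = 0.145). The 8 XEN markers had KO XEN sums of 551 and 949 CPM, WT XEN sums of 12340 and 20770 CPM and KO ESC sums of 128 to 173 CPM, and none was at 0 in KO XEN. Lama1 made up most of the sums in WT XEN, at 9071 and 16470 CPM, and in KO ESC, at 168, 97.3 and 98.3 CPM. It had 116 and 300 CPM in KO XEN and did not pass there against KO ESC. Gata6 did not pass in KO XEN against WT XEN, with levels of 96.6 and 169 CPM and of 225 and 328 CPM. Of these 8, 7 fell in KO XEN against WT XEN, whereas 6 rose against KO ESC. Of all tested genes, 22.3% rose and 23.9% fell in KO XEN against WT XEN, and 34.8% rose against KO ESC. The 8 fibroblast and mesenchyme markers had KO XEN sums of 3393 and 5003 CPM, WT XEN sums of 807 and 361 CPM and KO ESC sums of 28.1 to 39.1 CPM. Col3a1 and Postn were at 0 in KO ESC, and in KO XEN against WT XEN 6 of the 8 rose and 1 fell. The 8 leukocyte markers had KO XEN sums of 18.2 and 17.0 CPM, WT XEN sums of 42.4 and 29.7 CPM and KO ESC sums of 19.9 to 27.8 CPM. The 4 neuron markers had KO XEN sums of 94.7 and 121 CPM, WT XEN sums of 24.7 and 17.3 CPM and KO ESC sums of 67.5 to 77.6 CPM. Of these, Tubb3 and Dcx rose in KO XEN against WT XEN and 0 fell, and none was at 0 in a XEN library. The 4 endothelial markers had KO XEN sums of 37.9 and 45.9 CPM, WT XEN sums of 32.2 and 29.2 CPM and KO ESC sums of 96.5 to 138 CPM, and in KO XEN against WT XEN 1 rose and 2 fell. Among the leukocyte markers Ptprc, which all leukocytes carry, and Adgre1, a macrophage gene, were at 0 in both KO XEN libraries. Others were present there, among them Cd68 at 16.04 and 11.29 CPM and Csf1r at 1.67 and 5.292 CPM. Of the 5 leukocyte markers tested, 0 rose and 2 fell in KO XEN against WT XEN. Against KO ESC, 2 of them rose and 2 fell in KO XEN. Of 6 ES cell markers, 5 fell in KO XEN against WT XEN, with KO XEN sums of 52.7 and 49.6 CPM, WT XEN sums of 282 and 265 CPM and KO ESC sums of 3072 to 3390 CPM. The share of mitochondrial RNA was 0.781% and 0.979% for KO XEN, 1.94% and 2.64% for WT XEN and 2.79% to 3.26% for KO ESC. The part that these differences in cell makeup and in RNA have in the results below was not tested. In bulk RNA, fewer cells of a type and less RNA per cell cannot be told apart.

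In KO XEN against WT XEN, 44 of the 48 interferon-stimulated genes rose, 0 fell and 4 did not pass the test, which was edgeR's quasi-likelihood test with Benjamini-Hochberg adjustment over all tested genes and a threshold of 0.05 (edgeR adjusted p below). Of all tested genes, 22.3% rose and 23.9% fell in that comparison. The 48 members had a median log2 fold change of 3.48, against 0.00 for all tested genes, and the 44 called members had edgeR adjusted p from 0.000131 to 0.0479. The 4 that did not pass were Samhd1, Epsti1, Ifitm1 and Trim25, of which Samhd1 and Epsti1 had negative estimates. The share of all counts that members took was 0.602% and 0.901% for KO XEN, 0.124% and 0.0732% for WT XEN and 0.123% to 0.144% for KO ESC. The number that rose was 37 without the KO XEN library of line 5-3, 39 without WT XEN library B and 43 without both C4 libraries, and it stayed between 42 and 44 under the other alternatives.

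**Figure D2:**
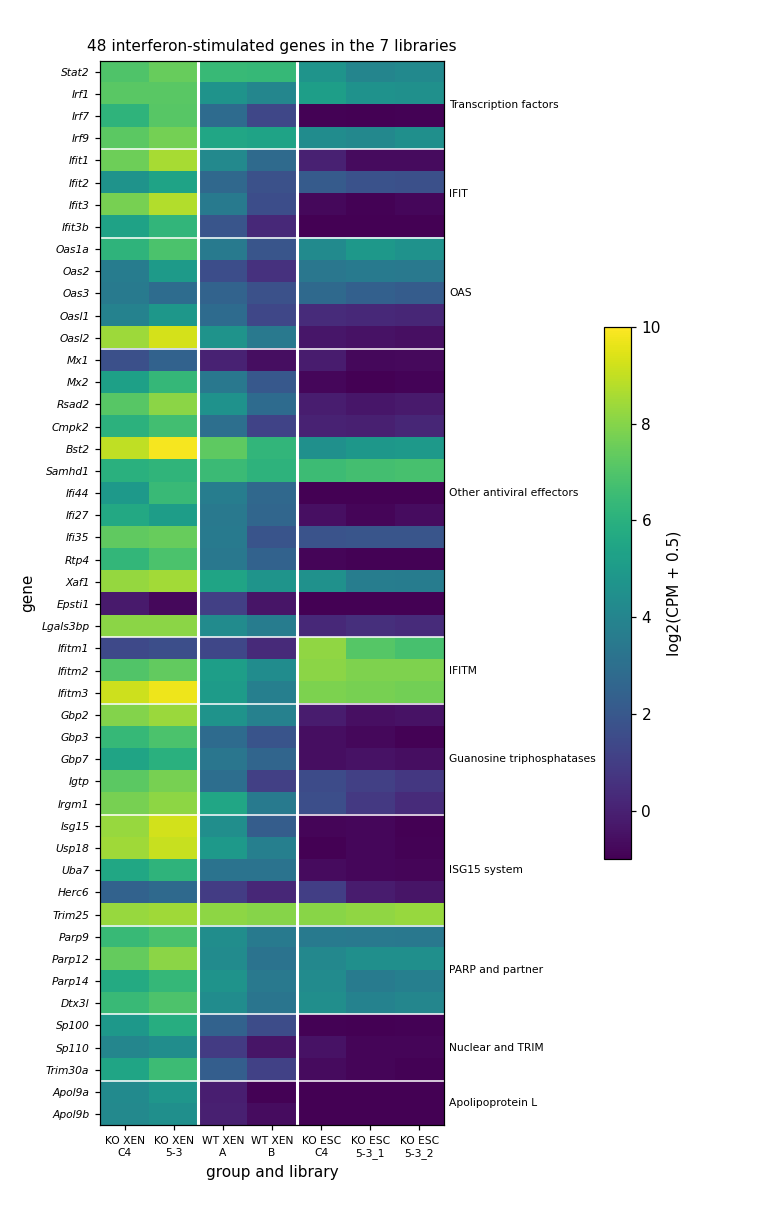
Level of each of the 48 genes (rows, grouped by role) in each of the 7 libraries (columns) as log2(CPM + 0.5), from dark (0 CPM) to yellow. Most rows are brightest in the KO XEN columns and darkest in the KO ESC columns, whereas Ifitm1 is brightest in KO ESC and Trim25 differs little in shade.

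In KO XEN against KO ESC, 42 members rose, 3 fell and 3 did not pass the test. Of all tested genes, 34.8% rose and 34.3% fell. The median log2 fold change of the members was 6.97, also with the 5 members at 0 counts in KO ESC set to their lower bound, against -0.08 for all tested genes. The members that fell were Ifitm1, Ifitm2 and Samhd1, and those that did not pass were Oas2, Oas3 and Trim25. Without the KO XEN library of line C4, Ifitm2 and Samhd1 no longer passed (log2 fold change -0.58 and -0.48, edgeR adjusted p = 0.168 and 0.122), which left 1 member that fell.

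In WT XEN against KO ESC, 31 members rose, 5 fell and 12 did not pass the test, beside 32.2% of all tested genes that rose and 30.3% that fell. The median log2 fold change was 2.98 for the members, also with the 5 members at 0 counts in KO ESC at their bound, and -0.03 for all tested genes. Without WT XEN library A that median was 1.91 and 27 members rose, and without library B it was 3.70 and 33 rose. The members that fell were the 3 Ifitm genes with Oas1a and Oas2. These 3 comparisons share libraries, so their values for a gene are given side by side and are not independent of each other.

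**Figure D3:**
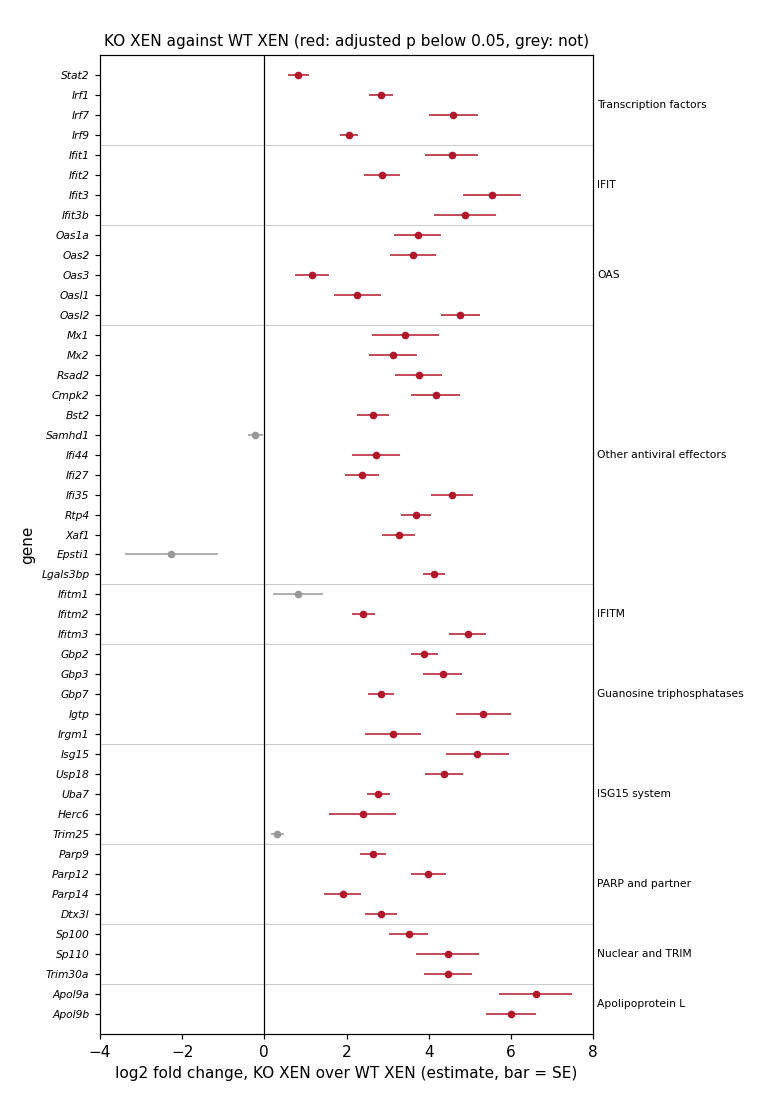
Log2 fold change of KO XEN over WT XEN (x axis, points with SE bars) for the 48 genes, in red where the edgeR adjusted p is below 0.05 and in grey where it is not. The red points lie between 0.83 (Stat2) and 6.61 (Apol9a), and the grey ones are Samhd1, Epsti1, Ifitm1 and Trim25.

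The starting level in ES cells differed widely among members. In KO ESC, 27 of the 48 had a mean below 1 CPM, among them 5 with 0 counts in all 3 libraries (Ifit3b, Ifi44, Epsti1, Apol9a and Apol9b), which at this depth allows up to 0.0225 CPM over the group. Another 5 members stood from 1 to below 10 CPM, 11 from 10 to below 100 CPM, and 5 at 100 CPM or more. In KO XEN, 1 member had a mean below 1 CPM and 22 had 100 CPM or more, and in WT XEN the numbers were 5 and 2. The median member had KO XEN levels of 74 and 117 CPM, WT XEN levels of 11 and 5.27 CPM and KO ESC levels of 0.624, 0.432 and 0.51 CPM.

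Per exon length, the order of the most abundant members differed between the groups. In KO XEN the highest were Ifitm3 with 1032 ± 275 RPKM (CPM per kilobase of exon, SD, n = 2), Bst2 with 786 ± 330 RPKM and Isg15 with 618 ± 276 RPKM, and the gaps from Ifitm3 to Bst2 and from Bst2 to Isg15 lay within the larger SD. Below Isg15 by more than the larger SD stood Ifitm2 with 223 ± 38.5 RPKM. In WT XEN Bst2 led with 126 ± 59.5 RPKM (SD, n = 2), apart from Trim25 at 46.3 ± 2.62 RPKM. Ifitm2 at 42.1 ± 16.9 RPKM, Ifitm3 at 33.4 ± 20.7 RPKM and Isg15 at 17.0 ± 16.2 RPKM followed within their spread. In KO ESC the order was Ifitm2 with 375 ± 30.4 RPKM, Ifitm3 with 317 ± 18.7 RPKM, Ifitm1 with 164 ± 88.2 RPKM, Trim25 with 50.4 ± 5.06 RPKM and Bst2 with 29.8 ± 4.08 RPKM (SD, n = 3), each apart from the next by more than the larger SD.

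All 4 transcription factors rose in KO XEN against WT XEN. Irf7, a factor that drives interferon alpha genes and is itself induced by interferon (ENSMUSG00000025498, chromosome 7, 141262706 to 141266481, mm10), had KO XEN levels of 71.0 and 143 CPM, WT XEN levels of 6.79 and 2.05 CPM and KO ESC levels of 0.0240, 0 and 0.0200 CPM. The groups did not overlap, and Irf7 was near 0 in ES cells. Its log2 fold change was 4.60 ± 0.60 (edgeR adjusted p = 0.000770) in KO XEN against WT XEN. Irf7 had 2 counts over the KO ESC libraries. With the libraries of a group pooled, its CPM in KO XEN was 8086 times that in KO ESC (exact 95% counting interval 2238 to 66790). In WT XEN it was 295 times (81.1 to 2449). Pooling gives the deeper library of a group more weight than a mean of libraries does. Such intervals cover counting error only.

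Irf9, the DNA-binding partner of Stat2 (ENSMUSG00000002325, chromosome 14, 55603571 to 55610030, mm10), had KO XEN levels of 151 and 208 CPM, WT XEN levels of 44.9 and 41.0 CPM and KO ESC levels of 19.9, 17.1 and 22.1 CPM. Its 3 groups were separate, and it was present in ES cells. The log2 fold change was 2.06 ± 0.21 (edgeR adjusted p = 0.000317) in KO XEN against WT XEN. Against KO ESC, Irf9 gave 3.19 ± 0.19 log2 units (edgeR adjusted p = 4.86e-06) in KO XEN and 1.12 ± 0.18 (edgeR adjusted p = 0.00104) in WT XEN. Irf9 shares 123 exon bases with Rnf31 on the same strand. Irf1, a factor induced by interferon gamma, had KO XEN levels of 147 and 145 CPM, WT XEN levels of 24.8 and 16.2 CPM and KO ESC levels of 34.9, 23.9 and 22.5 CPM. Both KO XEN libraries were above all others, and WT XEN overlapped KO ESC. It rose by 2.83 ± 0.29 log2 units (edgeR adjusted p = 0.000323) in KO XEN against WT XEN and by 2.43 ± 0.25 (edgeR adjusted p = 6.18e-05) against KO ESC, whereas WT XEN against KO ESC gave -0.40 ± 0.25 (edgeR adjusted p = 0.195). Stat2, which carries the activating domain of the complex, had KO XEN levels of 124 and 173 CPM, WT XEN levels of 84.8 and 82.3 CPM and KO ESC levels of 25.5, 15.5 and 18.3 CPM. Its groups were separate, with the smallest rise of the 4 factors between genotypes, a log2 fold change of 0.83 ± 0.26 (edgeR adjusted p = 0.0310). That call was lost without WT XEN A, WT XEN B, KO XEN 5-3 or KO ESC 5-3_2 (edgeR adjusted p = 0.132, 0.127, 0.251 and 0.065), in a range of 0.00838 to 0.251 over the alternatives. Its log2 fold change was 0.48 without KO XEN 5-3 and 0.76 to 0.80 without each of the other 3. Here and below, such ranges cover the edgeR and DESeq2 alternatives together. Stat2 rose by 2.91 ± 0.24 log2 units (edgeR adjusted p = 2.08e-05) in KO XEN and by 2.08 ± 0.23 (edgeR adjusted p = 0.000162) in WT XEN, each against KO ESC.

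The 4 IFIT genes, of a family with members that bind viral RNA that lacks the host's cap, lie together on chromosome 19. All 4 rose in KO XEN against WT XEN. Ifit3 (ENSMUSG00000074896, chromosome 19, 34583531 to 34588731, mm10), whose window above holds 3 copies of the core, had KO XEN levels of 213 and 422 CPM, WT XEN levels of 11.1 and 2.49 CPM and KO ESC levels of 0.0960, 0.0240 and 0.0800 CPM. Libraries of the 3 groups were far apart, and WT XEN library A was above B. The log2 fold change was 5.55 ± 0.70 (edgeR adjusted p = 0.000703) in KO XEN against WT XEN. Against KO ESC, Ifit3 gave 12.13 ± 0.85 log2 units (edgeR adjusted p = 1.04e-05) in KO XEN and 6.58 ± 0.84 (edgeR adjusted p = 0.000298) in WT XEN. Ifit1 had KO XEN levels of 189.8 and 379 CPM, WT XEN levels of 17.6 and 6.53 CPM and KO ESC levels of 0.504, 0.120 and 0.120 CPM. It followed the same order of groups, with a log2 fold change of 4.56 ± 0.64 (edgeR adjusted p = 0.00104) in KO XEN against WT XEN. Against KO ESC, Ifit1 gave 10.18 ± 0.72 log2 units (edgeR adjusted p = 1.07e-05) in KO XEN and 5.62 ± 0.66 (edgeR adjusted p = 0.000206) in WT XEN.

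Ifit2 had KO XEN levels of 24.4 and 41.3 CPM, WT XEN levels of 6.17 and 2.82 CPM and KO ESC levels of 3.96, 2.91 and 2.74 CPM. In it WT XEN overlapped KO ESC (0.49 ± 0.38 log2 units, edgeR adjusted p = 0.293), while KO XEN was above both, by 2.87 ± 0.44 (edgeR adjusted p = 0.00155) against WT XEN and 3.36 ± 0.39 (edgeR adjusted p = 0.000123) against KO ESC. Ifit3b, a close copy of Ifit3, rose by 4.88 ± 0.76 log2 units (edgeR adjusted p = 0.00364) in KO XEN against WT XEN. It had 0 counts in KO ESC and was at least 2863-fold higher in KO XEN and at least 86.8-fold higher in WT XEN, taking 3 counts over the KO ESC libraries as the floor. How reads shared by Ifit3 and Ifit3b were counted is not stated, so the split between them is uncertain.

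The 5 OAS genes, of which Oas1a to Oas3 make oligoadenylates on binding double-stranded RNA, all rose in KO XEN against WT XEN but had different starting levels. Oasl2 (ENSMUSG00000029561, chromosome 5, 114896936 to 114912234, mm10) had KO XEN levels of 334 and 627 CPM, WT XEN levels of 24.7 and 10.6 CPM and KO ESC levels of 0.288, 0.216 and 0.180 CPM. The groups were separate, with a log2 fold change of 4.77 ± 0.47 (edgeR adjusted p = 0.000307) in KO XEN against WT XEN. Against KO ESC, Oasl2 gave 11.03 ± 0.55 log2 units (edgeR adjusted p = 2.64e-06) in KO XEN and 6.26 ± 0.50 (edgeR adjusted p = 3.09e-05) in WT XEN. Oas1a had KO XEN levels of 71.2 and 119 CPM, WT XEN levels of 11.1 and 3.23 CPM and KO ESC levels of 19.0, 28.8 and 23.8 CPM. Here WT XEN was the lowest group and KO ESC lay between, so that KO XEN rose by 3.73 ± 0.56 log2 units (edgeR adjusted p = 0.00141) against WT XEN and by 2.0 ± 0.45 (edgeR adjusted p = 0.00477) against KO ESC. WT XEN was lower than KO ESC by a log2 fold change of -1.73 ± 0.49 (edgeR adjusted p = 0.0159), which was -2.85 without WT XEN A and -1.09 without B. Without the KO XEN library of 5-3, the rise against KO ESC no longer passed (edgeR adjusted p = 0.0553, range over alternatives 7.92e-05 to 0.0553).

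Oas2 had KO XEN levels of 11.8 and 31.2 CPM, WT XEN levels of 2.49 and 0.995 CPM and KO ESC levels of 9.82, 11.1 and 10.5 CPM. KO XEN C4 was just above the ES cell libraries and 5-3 further above. The log2 fold change was 3.63 ± 0.56 (edgeR adjusted p = 0.00163) in KO XEN against WT XEN and -2.58 ± 0.52 (edgeR adjusted p = 0.00315) in WT XEN against KO ESC. KO XEN against KO ESC gave 1.05 ± 0.45 log2 units (edgeR adjusted p = 0.0685). It was 0.09 without KO XEN 5-3 (edgeR adjusted p = 0.881) and 1.58 without KO XEN C4 (edgeR adjusted p = 0.0158), and it also passed without WT XEN B, with KO XEN and KO ESC alone and without both C4 libraries (edgeR adjusted p = 0.0454, 0.0489 and 0.037). Oas3 stood near the threshold in KO XEN against WT XEN (1.16 ± 0.41 log2 units, edgeR adjusted p = 0.0479), and that call was lost under 11 of 15 alternatives, among them the removal of any single library except WT XEN A, with edgeR adjusted p up to 0.228. Against KO ESC, Oas3 gave 0.84 ± 0.36 log2 units (edgeR adjusted p = 0.0708) in KO XEN and -0.33 ± 0.37 (edgeR adjusted p = 0.462) in WT XEN, of which the value in KO XEN passed without WT XEN B (0.0492). Oasl1, which in mice limits translation of Irf7, rose by 2.27 ± 0.57 log2 units (edgeR adjusted p = 0.0128) in KO XEN against WT XEN, a call lost without KO XEN 5-3 (edgeR adjusted p = 0.103, range 0.000368 to 0.103). Against KO ESC it rose by 4.91 ± 0.55 log2 units (edgeR adjusted p = 0.000105) in KO XEN and by 2.65 ± 0.52 (edgeR adjusted p = 0.00288) in WT XEN, the second being 1.56 without WT XEN A.

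**Figure D4:**
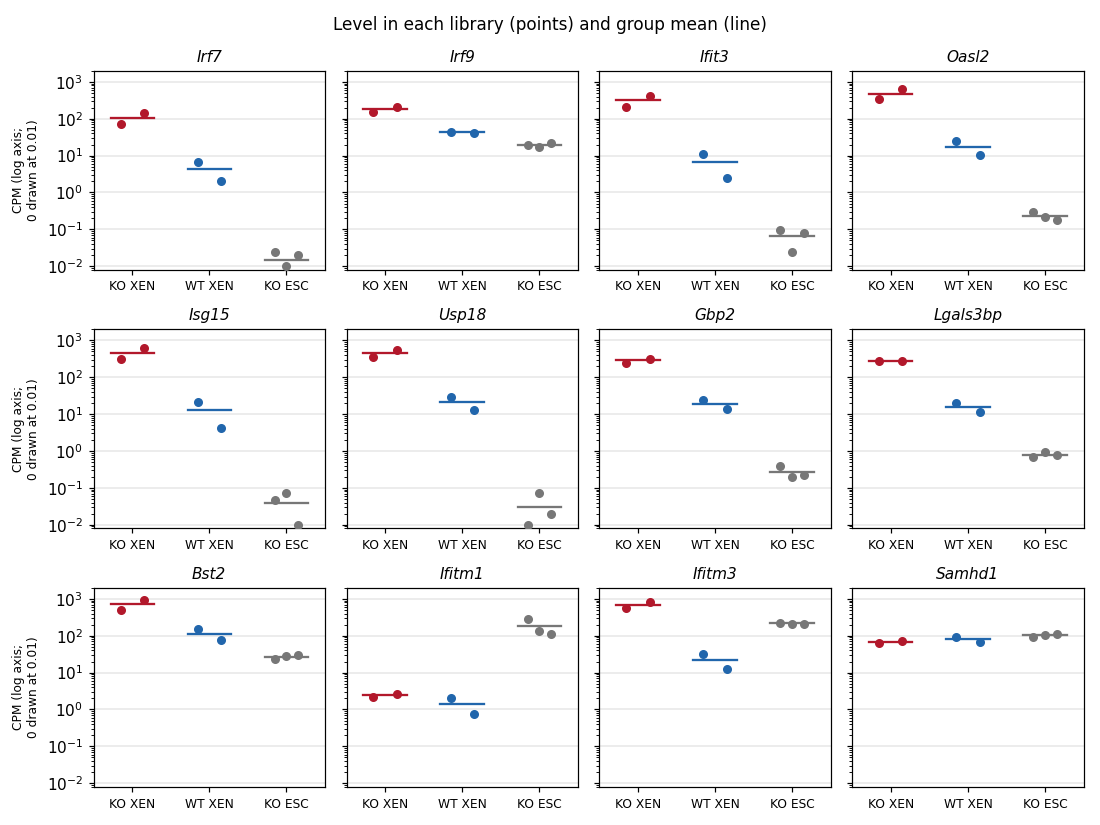
CPM on a log axis of 12 of the genes in KO XEN (red), WT XEN (blue) and KO ESC (grey), with a point for each library and a line at the group mean, and with 0 drawn at 0.01. Irf7, Ifit3, Isg15 and Usp18 lie near 0 in KO ESC, whereas Ifitm1 and Ifitm3 lie above WT XEN there and Samhd1 lies within a narrow band.

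Of the 13 other antiviral effectors, 11 rose and 2 did not pass in KO XEN against WT XEN. Bst2, or tetherin, holds budding virus particles at the cell surface (ENSMUSG00000046718, chromosome 8, 71534255 to 71537456, mm10), and it had KO XEN levels of 499 and 921 CPM, WT XEN levels of 152 and 75.8 CPM and KO ESC levels of 22.7, 28.2 and 29.7 CPM. The groups were separate, and WT XEN A was above B. Its log2 fold change was 2.64 ± 0.39 (edgeR adjusted p = 0.00134) in KO XEN against WT XEN. Against KO ESC, Bst2 gave 4.72 ± 0.37 log2 units (edgeR adjusted p = 1.58e-05) in KO XEN and 2.08 ± 0.34 (edgeR adjusted p = 0.00105) in WT XEN. Lgals3bp, a secreted glycoprotein that binds galectins, had KO XEN levels of 268 and 275 CPM, WT XEN levels of 19.4 and 11.6 CPM and KO ESC levels of 0.696, 0.913 and 0.780 CPM. Its KO XEN libraries lay close together, and WT XEN A was above B. The log2 fold change was 4.13 ± 0.27 (edgeR adjusted p = 0.000131) in KO XEN against WT XEN, the smallest adjusted p of the members. Against KO ESC, Lgals3bp gave 8.41 ± 0.28 log2 units (edgeR adjusted p = 1.05e-06) in KO XEN and 4.28 ± 0.25 (edgeR adjusted p = 8.81e-06) in WT XEN.

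Rtp4, an interferon-induced chaperone of receptor proteins, had KO XEN levels of 76.8 and 116 CPM, WT XEN levels of 9.95 and 4.98 CPM and KO ESC levels of 0.0480, 0.0240 and 0.0200 CPM. Libraries of the groups did not overlap, and the log2 fold change was 3.70 ± 0.37 (edgeR adjusted p = 0.000316) in KO XEN against WT XEN. Against KO ESC, Rtp4 gave 11.49 ± 0.51 log2 units (edgeR adjusted p = 1.70e-06) in KO XEN and 7.80 ± 0.51 (edgeR adjusted p = 1.41e-05) in WT XEN. Ifi35 had KO XEN levels of 158 and 172 CPM, WT XEN levels of 10.8 and 3.15 CPM and KO ESC levels of 2.98, 3.22 and 3.26 CPM. Library B of WT XEN was at the level of the ES cells, and A was above it. The log2 fold change was 4.56 ± 0.51 (edgeR adjusted p = 0.000435) in KO XEN against WT XEN and 5.71 ± 0.45 (edgeR adjusted p = 1.80e-05) in KO XEN against KO ESC. WT XEN against KO ESC gave 1.15 ± 0.42 log2 units (edgeR adjusted p = 0.0418), a call lost under 10 of 15 alternatives, with a log2 fold change of 0.03 without WT XEN A, 1.79 without B, and 1.17 with line as a block (edgeR adjusted p = 0.0541, range 0.000254 to 0.9). Ifi35 shares 290 exon bases with an antisense gene, and the strand setting of the counting is not stated.

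Samhd1, which degrades deoxynucleotides and so starves reverse transcription, had KO XEN levels of 63.5 and 73.3 CPM, WT XEN levels of 90.8 and 68.3 CPM and KO ESC levels of 92.0, 105 and 110.1 CPM. KO XEN overlapped WT XEN and both lay below the ES cells. It gave -0.22 ± 0.19 log2 units (edgeR adjusted p = 0.377) in KO XEN against WT XEN, fell in KO XEN against KO ESC at -0.58 ± 0.17 (edgeR adjusted p = 0.0172), and gave -0.37 ± 0.17 (edgeR adjusted p = 0.0969) in WT XEN against KO ESC, which passed only with upper-quartile scaling (0.0287). Without KO XEN C4 the fall against KO ESC did not pass (edgeR adjusted p = 0.122, range over alternatives 0.00724 to 0.122). Epsti1 had only 5 and 3 counts for KO XEN, 60 and 10 for WT XEN and 0 for all KO ESC libraries. WT XEN library A held most of them, and KO XEN overlapped WT XEN. The log2 fold change was -2.26 ± 1.14 (edgeR adjusted p = 0.156), and it was -0.53 without WT XEN A. It was at least 7.68-fold higher in KO XEN and at least 42.8-fold higher in WT XEN than in KO ESC. The call of KO XEN against KO ESC was lost without KO XEN C4, KO ESC C4 or KO ESC 5-3_2 (edgeR adjusted p = 0.119, 0.0651 and 0.0628, range 0.00373 to 0.198).

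The other 7 antiviral effectors rose in KO XEN against both other groups. Rsad2, or viperin, makes a chain-terminating nucleotide, and its neighbour on chromosome 12, Cmpk2, encodes a nucleotide kinase. Rsad2 rose by 3.76 ± 0.57 log2 units (edgeR adjusted p = 0.00148) and Cmpk2 by 4.17 ± 0.60 (edgeR adjusted p = 0.00112) in KO XEN against WT XEN, and both also rose in WT XEN against KO ESC, by 5.38 ± 0.59 (edgeR adjusted p = 0.000138) and 3.05 ± 0.55 (edgeR adjusted p = 0.00173), the second being 1.73 without WT XEN A. Mx2, a dynamin-like antiviral protein, rose by 3.13 ± 0.58 log2 units (edgeR adjusted p = 0.00363) in KO XEN against WT XEN and by 7.38 ± 0.77 (edgeR adjusted p = 0.000111) in WT XEN against KO ESC. Mx1 was low throughout, with KO XEN levels of 2.69 and 5.05 CPM, WT XEN levels of 0.548 and 0.166 CPM and KO ESC levels of 0.384, 0.0961 and 0.100 CPM. Both KO XEN libraries were above all others, and WT XEN overlapped KO ESC. It rose by 3.44 ± 0.83 log2 units (edgeR adjusted p = 0.0110) in KO XEN against WT XEN but gave 0.89 ± 0.78 (edgeR adjusted p = 0.346) in WT XEN against KO ESC.

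Xaf1, which promotes cell death, rose by 3.27 ± 0.40 log2 units (edgeR adjusted p = 0.000586) in KO XEN against WT XEN. In WT XEN against KO ESC it gave 1.12 ± 0.33 log2 units (edgeR adjusted p = 0.0186), a call lost without WT XEN A, KO ESC 5-3_1 or KO ESC 5-3_2 (edgeR adjusted p = 0.152, 0.0524 and 0.0624, range 0.00201 to 0.152). Without WT XEN A its log2 fold change was 0.73. Ifi27, a membrane protein, rose by 2.39 ± 0.41 log2 units (edgeR adjusted p = 0.00259) in KO XEN against WT XEN and by 5.93 ± 0.47 (edgeR adjusted p = 3.07e-05) in WT XEN against KO ESC. Ifi44 rose by 2.71 ± 0.58 log2 units (edgeR adjusted p = 0.0120) in KO XEN against WT XEN and, with 0 counts in KO ESC, was at least 3124-fold higher in KO XEN and at least 402-fold higher in WT XEN than there. The calls of Mx1 and Ifi44 in KO XEN against WT XEN were lost without WT XEN B (edgeR adjusted p = 0.0712 and 0.0734) and without KO XEN 5-3 (0.0701 and 0.0583). Without KO XEN 5-3 the log2 fold change was 2.81 for Mx1 and 1.68 for Ifi44. Over the alternatives their adjusted p ran from 0.000422 to 0.0712 and from 1.15e-05 to 0.0734.

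The 3 IFITM genes, whose membrane proteins block virus entry, lie together on chromosome 7. All 3 had a mean above 100 CPM in ES cells, as did Trim25 and Samhd1. Ifitm3 (ENSMUSG00000025492, chromosome 7, 141009586 to 141010770, mm10) had KO XEN levels of 568 and 831 CPM, WT XEN levels of 32.6 and 12.8 CPM and KO ESC levels of 228, 214 and 203 CPM. WT XEN was lowest, KO ESC intermediate and KO XEN highest, without overlap, as for Oas1a and Oas2 above. Ifitm3 rose by 4.95 ± 0.45 log2 units (edgeR adjusted p = 0.000234) in KO XEN against WT XEN and by 1.70 ± 0.34 (edgeR adjusted p = 0.00265) against KO ESC. In WT XEN it fell against KO ESC, at a log2 fold change of -3.25 ± 0.40 (edgeR adjusted p = 0.000267).

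Ifitm2 had KO XEN levels of 128 and 164 CPM, WT XEN levels of 35.4 and 19.8 CPM and KO ESC levels of 268, 236 and 232 CPM. ES cells were highest and WT XEN lowest. It rose by 2.41 ± 0.28 log2 units (edgeR adjusted p = 0.000506) in KO XEN against WT XEN, and its log2 fold change was -3.15 ± 0.28 (edgeR adjusted p = 5.03e-05) in WT XEN against KO ESC. In KO XEN against KO ESC it was -0.75 ± 0.25 log2 units (edgeR adjusted p = 0.0267), lost without KO XEN C4 (edgeR adjusted p = 0.168) in a range of 0.00523 to 0.255. Ifitm1 (ENSMUSG00000025491, chromosome 7, 140967221 to 140969825, mm10) had KO XEN levels of 2.18 and 2.62 CPM, WT XEN levels of 2.0 and 0.747 CPM and KO ESC levels of 290.4, 137 and 112 CPM. Its ES cell libraries were far above all XEN libraries, and C4 was above both 5-3 libraries among them. It fell in KO XEN against KO ESC (-6.21 ± 0.62 log2 units, edgeR adjusted p = 5.79e-05) and in WT XEN against KO ESC (-7.03 ± 0.64, edgeR adjusted p = 5.86e-05), whereas KO XEN against WT XEN gave 0.82 ± 0.60 (edgeR adjusted p = 0.300). The 3 genes have similar sequences, and how reads that map to several genes were counted is not stated.

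The 5 interferon-induced guanosine triphosphatases are of families with members that attack vacuoles that hold parasites and bacteria. All 5 rose in KO XEN against WT XEN and against KO ESC. Gbp2 (ENSMUSG00000028270, chromosome 3, 142620602 to 142638008, mm10), with 1 copy of the core in its window, had KO XEN levels of 249 and 321 CPM, WT XEN levels of 24.4 and 13.8 CPM and KO ESC levels of 0.384, 0.192 and 0.220 CPM. The groups were separate by wide margins, with a log2 fold change of 3.90 ± 0.33 (edgeR adjusted p = 0.000202) in KO XEN against WT XEN. Against KO ESC, Gbp2 gave 10.06 ± 0.39 log2 units (edgeR adjusted p = 1.41e-06) in KO XEN and 6.16 ± 0.35 (edgeR adjusted p = 8.28e-06) in WT XEN. Gbp3 had KO XEN levels of 81.5 and 117 CPM, WT XEN levels of 6.68 and 3.12 CPM and KO ESC levels of 0.168, 0.0961 and 0.0200 CPM. It kept that order, with 4.34 ± 0.48 log2 units (edgeR adjusted p = 0.000418) in KO XEN against WT XEN. Against KO ESC, Gbp3 gave 10.04 ± 0.57 log2 units (edgeR adjusted p = 4.17e-06) in KO XEN and 5.70 ± 0.55 (edgeR adjusted p = 8.01e-05) in WT XEN.

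Gbp7 had KO XEN levels of 42.9 and 63.3 CPM, WT XEN levels of 9.34 and 5.56 CPM and KO ESC levels of 0.168, 0.216 and 0.160 CPM. It too was separate in the 3 groups, with 2.83 ± 0.32 log2 units (edgeR adjusted p = 0.000462) in KO XEN against WT XEN. Against KO ESC, Gbp7 gave 8.17 ± 0.37 log2 units (edgeR adjusted p = 1.83e-06) in KO XEN and 5.34 ± 0.35 (edgeR adjusted p = 1.41e-05) in WT XEN. Igtp and Irgm1 are immunity-related GTPases of mice. Igtp rose by 5.33 ± 0.67 log2 units (edgeR adjusted p = 0.000689) and Irgm1 by 3.13 ± 0.69 (edgeR adjusted p = 0.00739) in KO XEN against WT XEN. In WT XEN against KO ESC Irgm1 rose by 4.19 ± 0.64 log2 units (edgeR adjusted p = 0.000776), whereas Igtp gave 1.39 ± 0.55 (edgeR adjusted p = 0.0566), which was past the threshold without WT XEN B (log2 fold change 2.11, edgeR adjusted p = 0.00278) and -0.03 without WT XEN A. Igtp shares 162 exon bases with Irgm2 on the same strand.

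The Isg15 system attaches the ubiquitin-like protein Isg15 to other proteins, and 4 of its 5 members rose in KO XEN against WT XEN. Isg15 (ENSMUSG00000035692, chromosome 4, 156199424 to 156200818, mm10), with the run of 3 overlapping cores shown above, had KO XEN levels of 319 and 615 CPM, WT XEN levels of 21.4 and 4.17 CPM and KO ESC levels of 0.0480, 0.0721 and 0 CPM. It was almost absent from ES cell libraries, and WT XEN A was 5.14 times B. Its log2 fold change was 5.19 ± 0.77 (edgeR adjusted p = 0.00129) in KO XEN against WT XEN. Against KO ESC, Isg15 gave 13.47 ± 1.01 log2 units (edgeR adjusted p = 1.36e-05) in KO XEN and 8.28 ± 0.99 (edgeR adjusted p = 0.000219) in WT XEN. Usp18, the protease that removes Isg15 and also damps the interferon receptor, had KO XEN levels of 345 and 539 CPM, WT XEN levels of 29.5 and 13.1 CPM and KO ESC levels of 0, 0.0721 and 0.0200 CPM. The groups did not overlap, with 4.37 ± 0.46 log2 units (edgeR adjusted p = 0.000361) in KO XEN against WT XEN. Against KO ESC, Usp18 gave 13.69 ± 0.65 log2 units (edgeR adjusted p = 2.21e-06) in KO XEN and 9.31 ± 0.63 (edgeR adjusted p = 1.58e-05) in WT XEN.

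Uba7, the enzyme that activates Isg15, had KO XEN levels of 46.9 and 71.1 CPM, WT XEN levels of 8.74 and 8.49 CPM and KO ESC levels of 0.120, 0.0721 and 0.0600 CPM. WT XEN libraries were nearly equal, and the log2 fold change was 2.78 ± 0.27 (edgeR adjusted p = 0.000294) in KO XEN against WT XEN. Against KO ESC, Uba7 gave 9.42 ± 0.34 log2 units (edgeR adjusted p = 1.19e-06) in KO XEN and 6.64 ± 0.33 (edgeR adjusted p = 5.32e-06) in WT XEN. Uba7 shares 233 exon bases with Gm20661 on the same strand. Trim25, an ubiquitin ligase that takes part in RIG-I signalling, had KO XEN levels of 315 and 348 CPM, WT XEN levels of 277 and 256 CPM and KO ESC levels of 262, 288 and 319.8 CPM. All libraries stood within a narrow range, and it passed in none of the 3 comparisons, with 0.32 ± 0.16 log2 units (edgeR adjusted p = 0.131) in KO XEN against WT XEN. Against KO ESC, Trim25 gave 0.19 ± 0.14 log2 units (edgeR adjusted p = 0.249) in KO XEN and -0.12 ± 0.14 (edgeR adjusted p = 0.474) in WT XEN. Herc6, which ligates Isg15 in mice, was low and gave 2.39 ± 0.82 log2 units (edgeR adjusted p = 0.0446) in KO XEN against WT XEN. That call was lost without KO XEN C4, KO XEN 5-3, WT XEN A, WT XEN B or KO ESC 5-3_1 (edgeR adjusted p = 0.092, 0.151, 0.078, 0.212 and 0.0506, range 0.00707 to 0.212). WT XEN against KO ESC gave 0.55 ± 0.74 log2 units (edgeR adjusted p = 0.539), which passed without KO ESC C4 (log2 fold change 1.70, 0.0235).

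The PARP group holds Parp9, Parp12 and Parp14, of the family of ADP-ribosyltransferases, and Dtx3l, which is not of that family. All 4 were already present in ES cells and rose in KO XEN against WT XEN and against KO ESC, while 0 of the 4 passed in WT XEN against KO ESC. Parp12 (ENSMUSG00000038507, chromosome 6, 39086410 to 39118349, mm10) had KO XEN levels of 169.8 and 272 CPM, WT XEN levels of 19.3 and 8.49 CPM and KO ESC levels of 17.2, 21.9 and 21.6 CPM. Its WT XEN libraries lay around or below the ES cells, with 3.99 ± 0.42 log2 units (edgeR adjusted p = 0.000358) in KO XEN against WT XEN. Against KO ESC, Parp12 gave 3.45 ± 0.35 log2 units (edgeR adjusted p = 6.18e-05) in KO XEN and -0.55 ± 0.35 (edgeR adjusted p = 0.203) in WT XEN. Without WT XEN A the value in WT XEN was past the threshold (log2 fold change -1.22, edgeR adjusted p = 0.023). Parp9 had KO XEN levels of 84.1 and 115 CPM, WT XEN levels of 20.7 and 11.2 CPM and KO ESC levels of 10.6, 10.3 and 10.0 CPM. Both WT XEN libraries were above the ES cells, A by more than B. It rose by 2.65 ± 0.31 log2 units (edgeR adjusted p = 0.000490) in KO XEN against WT XEN and 3.27 ± 0.27 (edgeR adjusted p = 2.12e-05) against KO ESC, and WT XEN against KO ESC gave 0.63 ± 0.26 (edgeR adjusted p = 0.0682), which passed without WT XEN B (1.01, edgeR adjusted p = 0.00776).

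Dtx3l, the ubiquitin ligase partner of Parp9, had KO XEN levels of 87.9 and 119.5 CPM, WT XEN levels of 20.1 and 9.04 CPM and KO ESC levels of 21.0, 14.4 and 16.1 CPM. WT XEN overlapped KO ESC, and the log2 fold change was 2.83 ± 0.39 (edgeR adjusted p = 0.000978) in KO XEN against WT XEN. Against KO ESC, Dtx3l gave 2.60 ± 0.33 log2 units (edgeR adjusted p = 0.000227) in KO XEN and -0.23 ± 0.34 (edgeR adjusted p = 0.567) in WT XEN. Parp9 and Dtx3l run towards opposite strands and share 458 exon bases, so their counts may not be separate. Parp14 rose by 1.90 ± 0.44 log2 units (edgeR adjusted p = 0.00963) in KO XEN against WT XEN, lost without KO XEN 5-3 (edgeR adjusted p = 0.0669, range 0.000149 to 0.0669), and by 2.18 ± 0.39 (edgeR adjusted p = 0.00137) against KO ESC. WT XEN against KO ESC gave 0.28 ± 0.39 log2 units (edgeR adjusted p = 0.555).

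Of the nuclear and TRIM genes all 3 rose in all 3 comparisons. Trim30a, which restrains innate signalling in mice (ENSMUSG00000030921, chromosome 7, 104409025 to 104465193, mm10), had KO XEN levels of 43.9 and 91.6 CPM, WT XEN levels of 4.44 and 1.66 CPM and KO ESC levels of 0.120, 0.0480 and 0.0200 CPM. Groups were separate, with 4.47 ± 0.59 log2 units (edgeR adjusted p = 0.000797) in KO XEN against WT XEN. Against KO ESC, Trim30a gave 10.05 ± 0.70 log2 units (edgeR adjusted p = 9.82e-06) in KO XEN and 5.58 ± 0.70 (edgeR adjusted p = 0.000279) in WT XEN. Sp100, a nuclear body protein, had KO XEN levels of 29.0 and 56.6 CPM, WT XEN levels of 5.04 and 2.43 CPM and KO ESC levels of 0.0240, 0 and 0.0200 CPM. It rose by 3.52 ± 0.48 log2 units (edgeR adjusted p = 0.000897) in KO XEN against WT XEN. With 2 counts in KO ESC, its pooled CPM in KO XEN was 3225 times that in KO ESC (exact 95% counting interval 892 to 26650). In WT XEN it was 249 times (68.4 to 2070). Sp100 shares 104 exon bases with a ribosomal RNA gene on the same strand.

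Sp110, a relative of Sp100, had KO XEN levels of 15.8 and 20.6 CPM, WT XEN levels of 1.37 and 0.277 CPM and KO ESC levels of 0.216, 0.0480 and 0.0600 CPM. Its WT XEN library B was close to ES cells, and the log2 fold change was 4.46 ± 0.76 (edgeR adjusted p = 0.00246) in KO XEN against WT XEN and 7.38 ± 0.77 (edgeR adjusted p = 7.28e-05) in KO XEN against KO ESC. WT XEN against KO ESC gave 2.92 ± 0.77 log2 units (edgeR adjusted p = 0.0115), lost without WT XEN A (log2 fold change 1.39, edgeR adjusted p = 0.18). Sp110 shares 392 exon bases with a gene on the opposite strand.

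The apolipoprotein L genes Apol9a and Apol9b, close copies of each other on chromosome 15, had the 2 largest log2 fold changes of the members between KO XEN and WT XEN. Apol9a had KO XEN levels of 18.9 and 27.3 CPM, WT XEN levels of 0.438 and 0.0277 CPM and KO ESC levels of 0, 0 and 0 CPM. Its 17 counts in WT XEN came mostly from library A. It rose by 6.61 ± 0.89 log2 units (edgeR adjusted p = 0.00219) in KO XEN against WT XEN and was at least 1102-fold higher in KO XEN and at least 10.4-fold higher in WT XEN than in KO ESC. The call in WT XEN against KO ESC (edgeR adjusted p = 0.0209) was lost without WT XEN A, with a fitted log2 fold change of 3.19. It was also lost without both C4 libraries, at 6.22, beside 6.09 in the main fit.

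Apol9b (ENSMUSG00000068246, chromosome 15, 77729039 to 77736382, mm10) had KO XEN levels of 17.5 and 21.7 CPM, WT XEN levels of 0.466 and 0.138 CPM and KO ESC levels of 0, 0 and 0 CPM. The groups did not overlap, with a log2 fold change of 6.0 ± 0.61 (edgeR adjusted p = 0.000808) in KO XEN against WT XEN and at least 907-fold and 13.5-fold higher levels in KO XEN and in WT XEN than in KO ESC. The split of reads between both copies is uncertain.

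**Figure D5:**
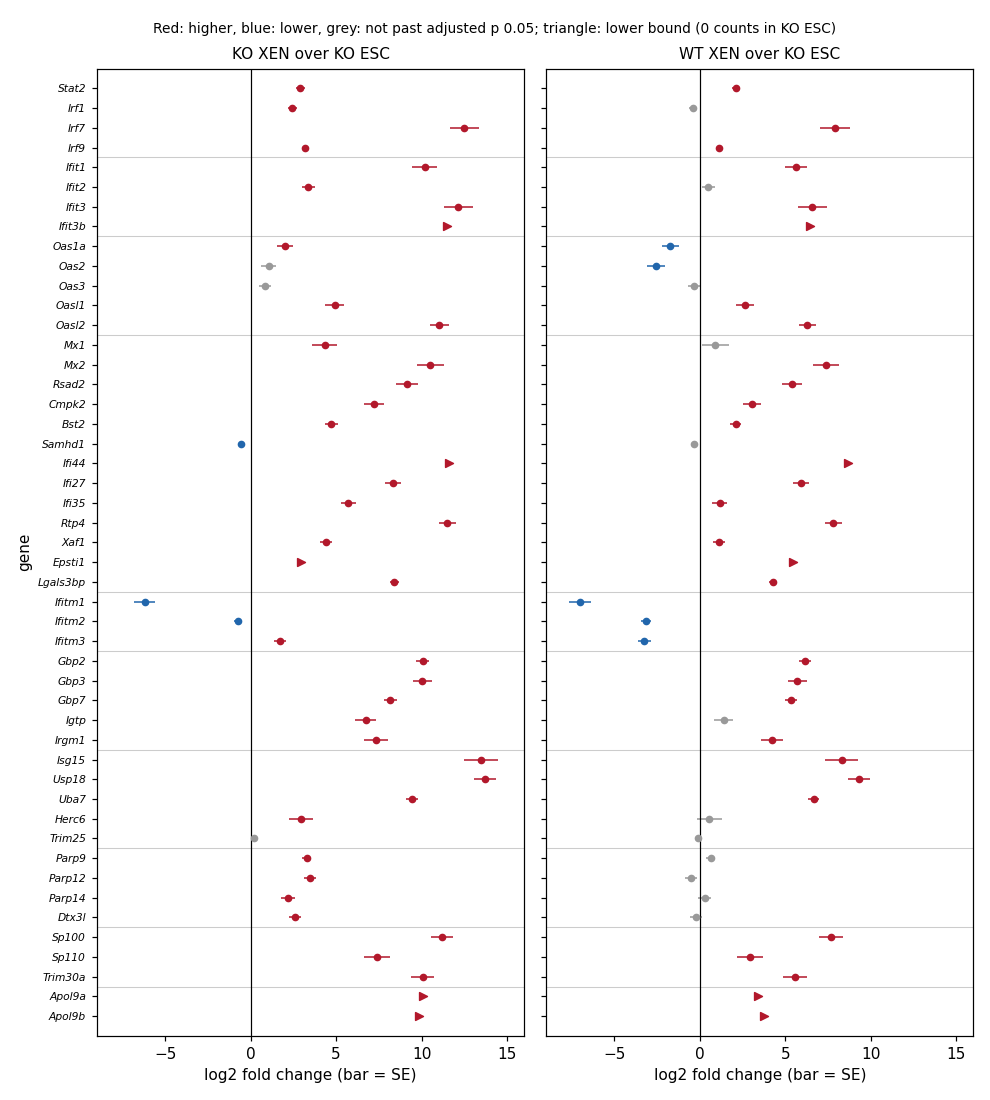
Log2 fold change over KO ESC of KO XEN (left) and WT XEN (right) for the 48 genes, as points with SE bars, with triangles at lower bounds for the 5 genes at 0 counts in KO ESC and colours for higher (red), lower (blue) and not past adjusted p 0.05 (grey). Both panels share the KO ESC libraries, and the points of the Ifitm genes lie left of 0 except Ifitm3 in KO XEN.

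Libraries of the same group also differed across the members as a block. In KO XEN, C4 was lower than 5-3 in 44 of the 48 members, with a median log2 difference of C4 minus 5-3 of -0.55, from -1.49 (Ifi44) to 0.60 (Oas3), whereas 47.1% of all tested genes were higher in C4. In WT XEN, library A was higher than B in 48 of the 48, with a median log2 difference of A minus B of 1.00, from 0.04 (Uba7) to 2.23 (Isg15), whereas 48.7% of all tested genes were higher in A. Each of these counts compares 1 library with 1 other and has no replicate check. Marker sums differed between these libraries as well. For A, B, C4 and 5-3 they were 807, 361, 3393 and 5003 CPM for fibroblast markers and 24.7, 17.3, 94.7 and 121 CPM for neuron markers. Endothelial markers had 32.2, 29.2, 37.9 and 45.9 CPM. XEN markers had 12340, 20770, 551 and 949 CPM, so they were lower in A than in B, unlike the members. Some single markers went against their list. Postn had 4.90 CPM in A and 6.47 CPM in B, and Thy1 had 4.86 CPM in C4 and 0.831 CPM in 5-3. The part of these differences was not tested. In KO ESC the difference of C4 from the mean of 5-3 had a median of 0.12, with 32 members higher and 11 lower, whereas 48.6% of all tested genes were higher in C4. There 27 members had a mean below 1 CPM, 5 of them at 0 counts, so many of these signs rest on few counts.

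Within each knockout line, 45 of the 48 members were higher in KO XEN than in KO ESC, with a median log2 difference of 5.23 in C4 and 5.50 in 5-3 on the log2(CPM + 0.5) scale, which understates the change of low genes. Of all tested genes, 49.2% were higher in KO XEN than in KO ESC within C4 and 48.3% within 5-3, with medians of -0.02 and -0.06. Ifitm1 was the most negative in both lines, at -6.76 in C4 and -5.32 in 5-3, and the most positive were Usp18 at 9.43 in C4 and Isg15 at 10.17 in 5-3. A test of the interaction of line and differentiation, with 2 residual degrees of freedom, gave 0 members at an edgeR adjusted p below 0.05, 2 at an unadjusted p below 0.05 and a smallest adjusted p of 0.382. Over all tested genes it gave 0 calls, with 1844 at an unadjusted p below 0.05.

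Among genes that act upstream of the members, interferon transcripts were scarce, and 10 of 11 ligand genes did not pass the filter. Ifnb1, the interferon beta gene, had 11 and 72 counts for KO XEN, 12 and 0 for WT XEN and 0 for all KO ESC libraries. The 5-3 library held most of them, and the log2 fold change of KO XEN against WT XEN was 3.20 ± 1.26 (edgeR adjusted p = 0.0837), not past the threshold. In KO XEN, Ifnb1 was at least 79.7-fold higher than in KO ESC (edgeR adjusted p = 0.00471). Ifna4 had 3 and 20 counts for KO XEN, 0 and 1 for WT XEN and 0 for KO ESC. Ifna2 had 2 counts in KO XEN 5-3, Ifnl2 had 1 in KO XEN C4, Ifnk had 8 in WT XEN B and Ifng had 1 in KO ESC 5-3_1. Ifna1, Ifna5, Ifne, Ifnz and Ifnl3 were at 0 in all 7 libraries.

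Of 10 receptor and signalling genes, 3 rose and 1 fell in KO XEN against WT XEN, beside 22.3% and 23.9% of all tested genes. Stat3, which other cytokines use, rose by 1.14 ± 0.17 log2 units (edgeR adjusted p = 0.00120) in KO XEN against WT XEN, and Ifnlr1, the interferon lambda receptor, fell (-2.01 ± 0.37, edgeR adjusted p = 0.00338). The receptor chains Ifnar1 and Il10rb rose by 0.64 ± 0.20 log2 units (edgeR adjusted p = 0.0297) and 0.79 ± 0.26 (edgeR adjusted p = 0.0355), while Ifnar2 gave 0.53 ± 0.21 (edgeR adjusted p = 0.0693), Jak1 0.03 ± 0.14 (edgeR adjusted p = 0.871) and Tyk2 0.19 ± 0.18 (edgeR adjusted p = 0.422). Over KO ESC, 9 of the 10 rose and 1 fell in KO XEN, and 10 of the 10 rose in WT XEN. Of all tested genes, 34.8% rose and 34.3% fell in KO XEN over KO ESC, and 32.2% rose in WT XEN.

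Among 8 inhibitors of the pathway, 3 rose and 1 fell in KO XEN against WT XEN, beside 22.3% and 23.9% of all tested genes. Socs1, the feedback inhibitor of Jak kinases, rose by 2.48 ± 0.37 log2 units (edgeR adjusted p = 0.00128), the phosphatase Ptpn1 by 1.10 ± 0.19 (edgeR adjusted p = 0.00267) and Ptpn11 by 0.50 ± 0.14 (edgeR adjusted p = 0.0192), while Ptpn2 fell (-1.07 ± 0.19, edgeR adjusted p = 0.00307). Among 14 sensors and adaptors, 9 rose and 1 fell in that comparison, beside the same shares of all tested genes. Zbp1, a sensor of left-handed nucleic acid, rose by 5.93 ± 0.52 log2 units (edgeR adjusted p = 0.000211), Dhx58 by 4.72 ± 0.39 (edgeR adjusted p = 0.000196) and Ddx58, the RNA sensor RIG-I, by 1.97 ± 0.21 (edgeR adjusted p = 0.000373), whereas the kinase Tbk1 fell (-1.37 ± 0.21, edgeR adjusted p = 0.00163).

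Of 12 genes of antigen processing, 9 rose and 0 fell in KO XEN against WT XEN, beside 22.3% and 23.9% of all tested genes. Among those that rose were Psmb8, an immunoproteasome subunit (6.33 ± 0.47 log2 units, edgeR adjusted p = 0.000155), the peptide transporter Tap2 (4.46 ± 0.43, edgeR adjusted p = 0.000282) and Psmb10 (4.17 ± 0.28, edgeR adjusted p = 0.000136). B2m, H2-K1 and H2-D1, the chains of class I molecules, did not pass there. They gave 0.71 ± 0.30 log2 units (edgeR adjusted p = 0.0867), -0.29 ± 0.26 (edgeR adjusted p = 0.390) and -0.47 ± 0.28 (edgeR adjusted p = 0.198). In KO XEN against KO ESC all 12 genes rose, beside 34.8% of all tested genes.

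Set beside the promoter letters, members with the ISRE core had a median log2 fold change of 3.90 in KO XEN against WT XEN (n = 21, from 0.32 to 6.61), those with a window and no core 2.87 (n = 19, from -2.26 to 4.77), and the 8 without a listed window 3.28. The ranges overlapped, and no test was made. Oasl2 and Lgals3bp had neither set of letters in their windows and rose by 4.77 and 4.13, while Trim25 had the core and did not pass.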

How the data were processed

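Poly(A) RNA of 7 libraries was sequenced on an Illumina HiSeq2000 after a reverse-stranded preparation, per the labels. The deposited table holds unnormalized read counts for each Ensembl gene, which the authors made with STAR 2.4.2a and featureCounts 1.4.5-p1 on mm10, per the submitters' processing notes. The annotation release, the strand setting and the treatment of reads that map to several genes are not given in the sources used here. Sample titles gave the groups and lines.

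Symbols and positions came from GENCODE M21 (GRCm38), and promoter sequences from RefSeq (GRCm38.p6). Rows with no symbol held 0.136% of counts and stayed in the tests. All 7 libraries entered 1 edgeR 4.0.16 quasi-likelihood fit with 3 groups (R 4.3.3), TMM scaling and filterByExpr, which set aside 25203 genes, and Benjamini-Hochberg adjusted p below 0.05 was called. The fit was also run on simulated counts with the same dispersion for every gene. That setting is simpler than these data, so it does not measure error rates here. Whether libraries within a group are separate cultures is not stated, so p-values measure the spread between libraries. No pair of libraries agreed within sampling noise. Against 0 counts a fold is a lower bound, with 3 counts over the group as the floor, and intervals and floors cover counting error only.

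Lines pair KO XEN with KO ESC by the labelled cell line, and the difference of C4 from 5-3 in XEN correlated with that in ES cells at r = 0.0634 across 18426 genes, which are not independent replicates. Line as a block, DESeq2 1.42.0, other scalings and filters and the removal of each library were the alternatives. Members and gene lists were chosen with earlier results of these data known. All 48 members are named. Values in every library are given for the transcription factors, the 3 best-called members of each role with at least 10 CPM, members that fell or did not pass between the XEN groups, the 5 highest per exon length, and the ligands with counts, and for Mx1, chosen after its values were seen. Some genes of the pathway lists are not reported here.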

Additional observations from a re-analysis of the deposited data

How the results depend on the processing

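Over 15 alternatives, the direction of every member that could be tested held in KO XEN against WT XEN and in KO XEN against KO ESC. Epsti1 was left untested by a filter of at least 1 CPM in 2 libraries and, against KO ESC, by the fit of KO XEN and KO ESC alone. The members that rose in KO XEN against WT XEN numbered 37 to 44, with a median log2 fold change of 2.85 to 4.25. Those that fell in KO XEN against KO ESC numbered 1 to 3 when single libraries were left out, and 1 without both C4 libraries. The median in WT XEN against KO ESC ran from 1.91 to 3.70 when single libraries were left out. In that comparison members that had not passed changed sign without WT XEN A (Ifit2, Mx1, Igtp, Herc6 and Parp14) or without WT XEN B (Oas3 and Dtx3l). With single libraries left out, Ifit2 ran from -0.15 to 0.95, Mx1 from -0.17 to 1.81, Igtp from -0.03 to 2.11, Herc6 from -0.09 to 1.70, Parp14 from -0.45 to 0.79, Oas3 from -0.81 to 0.06 and Dtx3l from -0.89 to 0.24. The cause was not tested. Upper-quartile scaling moved the median of all genes to -0.19 in KO XEN against KO ESC and to -0.20 in WT XEN against KO ESC, and no filter moved it to -0.35 in KO XEN against KO ESC. All genes that rose in KO XEN against WT XEN numbered 4115, against 2511 without WT XEN B and 2618 without KO XEN 5-3. With line as a replicate block 44 members rose in KO XEN against WT XEN, and 42 rose and 3 fell in KO XEN against KO ESC. In WT XEN against KO ESC 30 rose and 5 fell, and the call of Ifi35 was lost, while the block changed no other call of a member. Depth limits the members with few counts, of which 5 had 0 and 2 had 1 to 3 counts in KO ESC, and with 2 libraries in each XEN group a single library decides several calls.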
